A study of Mus musculus with 4 samples.

Results

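The primary (azurophil) granule genes Elane, Mpo, Prtn3, Ctsg and Prss57 were followed in the bone marrow and spleen of mice that carried MLL-AF9 (MA9) acute myeloid leukemia. They are 5 of the 32285 genes in the deposited count tables and were chosen by name for the granule proteins they encode, and their raw unique molecular identifier counts (UMIs, about 1 per captured mRNA molecule) were summed in leukemia cells, neutrophils and monocytes gated on other genes, in each of the 4 single-cell libraries. The MA9 cells of all 4 groups carried an inducible short hairpin RNA, a control hairpin in BM-Ctrl and Spleen-Ctrl and a hairpin against Prmt9 (an arginine methyltransferase) in BM-shPrmt9 and Spleen-shPrmt9. They grew in wild-type C57BL/6J recipients, labeled as 6-8 weeks old, that kept their own blood cells and were all given doxycycline (Dox) in the drinking water for 7 days. Each group is 1 library, so every library holds leukemia cells beside host cells, no difference has a replicate check, and hairpin, mouse and library cannot be told apart. Intervals below are exact 95% intervals that cover counting error only.

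Primary granules are the first granules a neutrophil precursor makes. They are filled at the promyelocyte stage, and transcription of their genes then stops, so that a mature neutrophil carries the proteins with little of the mRNA. Elane (neutrophil elastase), Prtn3 (proteinase 3) and Ctsg (cathepsin G) are serine proteases that digest microbes and matrix, Prss57 (neutrophil serine protease 4) is a related protease with a narrower cleavage preference, and Mpo (myeloperoxidase) is not a protease but the heme enzyme that makes hypochlorous acid. Granulocyte-monocyte progenitors and early monocyte precursors are known to transcribe them too.

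In GRCm38 (mm10) coordinates, Prss57 (ENSMUSG00000020323, chr10:79781474-79790961, minus strand), Prtn3 (ENSMUSG00000057729, chr10:79874476-79883174, plus) and Elane (ENSMUSG00000020125, chr10:79886247-79888215, plus) lie together, with 3072 bases between Prtn3 and Elane. Ctsg (ENSMUSG00000040314) is at chr14:56099881-56102574 on the minus strand and Mpo (ENSMUSG00000009350) at chr11:87793581-87804413 on the plus strand. Promoter sequence from RefSeq (GRCm38.p6) matched 4 of the 5 genes, Prss57 being the one without an entry. The stretches below are printed because Elane and Prtn3, the pair that varied together most closely from one leukemia cell to the next, also share the order of 3 short motifs just before their RefSeq start sites (chr10:79886312 and chr10:79879667). Capitals mark a purine-rich motif of the kind bound by ETS factors, spelled GAGGAAG. Where present, they also mark a motif of the Myb type, with the letters CAACGG. A motif like a TATA box, TATAAG, comes last of the 3 and lies beyond the printed windows of Elane and Prtn3. The motifs were picked after these sequences had been read, and every line runs 5′ to 3′ on the gene's own strand.
Elane, chr10:79886202-79886272, plus strand: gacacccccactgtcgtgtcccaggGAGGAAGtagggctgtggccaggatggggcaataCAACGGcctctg
Prtn3, chr10:79879557-79879627, plus strand: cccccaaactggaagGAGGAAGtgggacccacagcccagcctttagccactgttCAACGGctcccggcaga
Mpo, chr11:87793534-87793573, plus strand: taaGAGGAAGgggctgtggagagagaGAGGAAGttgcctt
Ctsg, chr14:56102770-56102799, minus strand: ccagaaggaGAGGAAGaaaaggaagtagtc

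Counted from the RefSeq start sites, GAGGAAG began 85 bases before the Elane start and 95 bases before that of Prtn3, CAACGG 51 and 56 bases before, and TATAAG 31 and 32 bases before. The gene models given above start elsewhere, so these distances do not hold for them: the RefSeq start lies 65 bases after the first base of the Elane model and 5191 bases after that of Prtn3 (53 bases after its nearest transcript start), so that the later motifs lie within those models. It lies 203 bases after the first base of the Mpo model and at that of Ctsg. In Mpo the purine-rich motif occurred 247 and 224 bases before the start and in Ctsg 216 bases before, and neither 300-base window held CAACGG. On either strand, GAGGAAG occurred in 13.6%, CAACGG in 5.12% and TATAAG in 7.43% of 32851 RefSeq promoter windows of the same length, and all 3 occurred in 7 windows (0.0213%). These matches describe letters and not binding.

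Prmt9 itself was lower in the leukemia cells that carried its hairpin. It stood at 11.0 CPM (a gene's UMIs per 1e+06 UMIs of the gate, here 1027 UMIs) in BM-Ctrl and 6.17 CPM (546 UMIs) in BM-shPrmt9, a ratio of 0.559 (0.503 to 0.621). In spleen, 24 and 7 UMIs gave a ratio of 0.319 (0.116 to 0.763). Spleen T and B cells were also lower in Spleen-shPrmt9, at 15.16 and 10.17 CPM (T) and 12.95 and 9.97 CPM (B). Bone marrow progenitors (18.02 and 11.19 CPM) and neutrophils (7.19 and 6.65 CPM) were lower in BM-shPrmt9 with overlapping intervals. Monocytes, B and T cells of bone marrow were not lower there. Spleen neutrophils, monocytes and progenitors held at most 13 UMIs each. The part of the library in the leukemia ratios was not tested.

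Between 7507 and 10163 cells per library were used, with a median of 6262 to 10375 UMIs per cell, and pairs of libraries shared 15 to 35 cell barcodes. Leukemia cells were taken as cells with UMIs of at least 3 of the 6 genes Hoxa5, Hoxa7, Hoxa9, Hoxa10, Meis1 and Pbx3. With those that also met the neutrophil or monocyte gate, they made up 18.4% of the control and 19.2% of the Prmt9 knockdown bone marrow library, and 0.482% and 2.30% of the matching spleen libraries. The host sex markers differed between libraries. Xist was nearly absent from BM-Ctrl outside lymphocytes but stood at 675 CPM in monocytes and 1385 CPM in progenitors of BM-shPrmt9. There, 15.8% of leukemia cells held an Xist UMI (0.530% in BM-Ctrl). Both spleens held Y-linked UMIs in host cells, whereas neutrophils, monocytes, progenitors, B and T cells of both bone marrow libraries held 0. In BM-Ctrl these markers therefore do not tell myeloid cells of the host from leukemia cells.

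Elane, Prtn3 and Ctsg were among the abundant transcripts of bone marrow leukemia cells, and the leukemia gate held 87.6% of all UMIs of the 5 genes in BM-Ctrl and 87.5% in BM-shPrmt9. Their levels were read as UMIs of a 3′ assay, which are not divided by gene length. The 1509 leukemia cells of BM-Ctrl held 831515 UMIs of the 5 genes, or 551 per cell, and the 1495 of BM-shPrmt9 held 1012243, or 677 per cell. As a background, B cells, which do not make these proteins, held 0.905 and 1.6 UMIs per cell. Depth per cell differed between these gates and libraries. As CPM, the 5 genes stood at 163 and 150 in B cells and at 8934 and 11435 in leukemia cells.

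**Figure D1:**
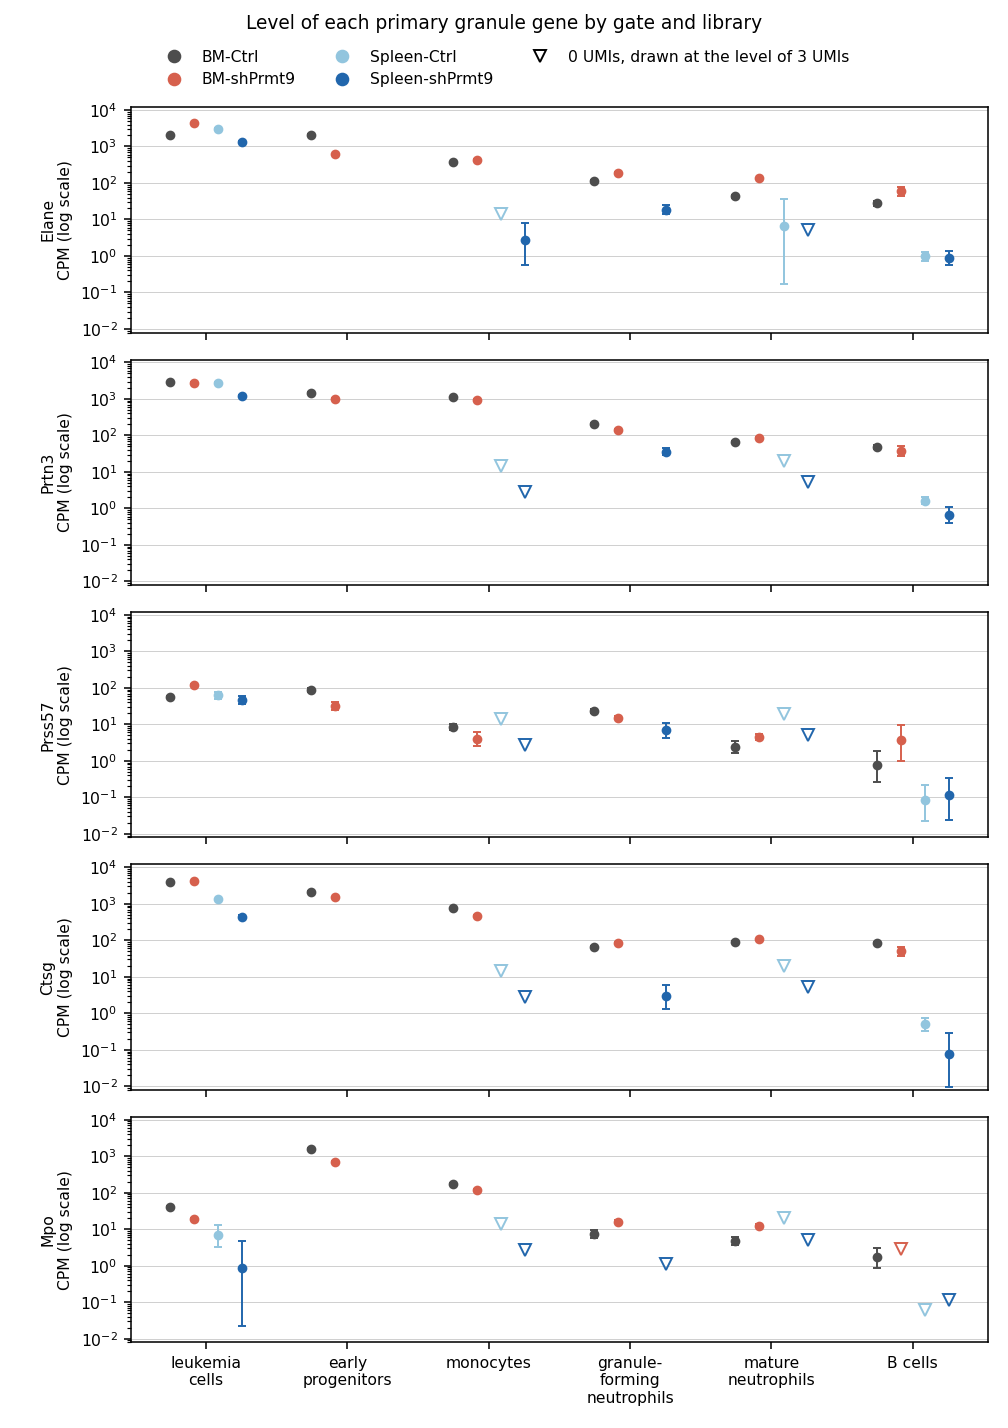
Level of each gene (CPM of the gate's UMIs, log axis) in the gated cell types of each library, with 1 point per library and exact 95% counting intervals (an open triangle marks 0 UMIs, drawn at the level of 3 UMIs, and gates under 20 cells are left out). Elane, Prtn3 and Ctsg lie between 2001 and 4288 CPM in bone marrow leukemia cells, while Mpo is at 1611 and 716 CPM in bone marrow progenitors and at 41.7 and 18.9 CPM in leukemia cells.

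Elane was the gene that differed most between the bone marrow libraries among the 3 abundant members. It measured 2001 CPM (1992 to 2010.5) in leukemia cells of BM-Ctrl and 4288 CPM (4274 to 4302) in BM-shPrmt9, a ratio of 2.14 (2.13 to 2.15). In the spleen libraries it ran the other way, at 3076 CPM in the 28 leukemia cells of Spleen-Ctrl and 1340.1 CPM in the 34 of Spleen-shPrmt9 (ratio 0.436, 0.410 to 0.462). The 2 tissues thus gave opposite directions for the same hairpin, and the spleen values rest on few cells. The sex markers given above also differed between the bone marrow and spleen libraries of each hairpin. A difference of mouse therefore cannot be told apart from that of tissue.

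Prtn3, the gene next to Elane, was level in bone marrow. Its leukemia-cell level was 2832 CPM in BM-Ctrl and 2817 CPM in BM-shPrmt9 (ratio 0.995, 0.989 to 1.0), and in spleen the control library had 2812 CPM and the knockdown library 1235 CPM (0.439). Ctsg was the most abundant member in BM-Ctrl leukemia cells, with 4002 CPM, and measured 4190.0 CPM in BM-shPrmt9 (ratio 1.05, 1.04 to 1.05). In spleen leukemia cells it was lower in both groups, at 1334 CPM with the control hairpin and 449 CPM with the Prmt9 hairpin (0.337).

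Prss57, on the far side of the same chromosome 10 cluster, differed between the bone marrow libraries as Elane did, and not as Prtn3, its nearer neighbor. It measured 57.2 CPM (5325 UMIs) in BM-Ctrl and 122 CPM (10772 UMIs) in BM-shPrmt9, a ratio of 2.13 (2.06 to 2.20). In spleen, 63.2 CPM (80 UMIs) and 47.5 CPM (55 UMIs) gave a ratio of 0.752 whose interval, 0.523 to 1.07, includes no difference. Mpo was scarce in leukemia cells. It stood at 41.7 CPM in BM-Ctrl and 18.9 CPM in BM-shPrmt9 (ratio 0.452, 0.427 to 0.479), and spleen leukemia cells held 9 UMIs of it in Spleen-Ctrl and 1 in Spleen-shPrmt9.

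Of the 5 members, 2 were at least 2-fold higher in BM-shPrmt9 than in BM-Ctrl leukemia cells and 1 at least 2-fold lower, where 13.8% of the 14154 genes with at least 20 UMIs were at least 2-fold higher and 6.52% at least 2-fold lower. The summed UMIs of the 5 genes had a ratio of 1.28 (1.28 to 1.28). Elane stayed at 2.04 or more under every alternative, and Prss57 at 1.99 or more, whereas the Mpo ratio was 0.129 without Xist cells and 0.595 as a mean over cells, and Ctsg turned to 0.953 when co-gated leukemia cells were counted too. In spleen, 3 of the 4 members with at least 20 UMIs were at least 2-fold lower and none at least 2-fold higher, against 9.62% and 10.6% of 7712 genes. The spleen sum had a ratio of 0.421 (0.405 to 0.438), and 0.268 with co-gated cells (these cells and the Xist cells were set apart after the data had been seen).

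**Figure D2:**
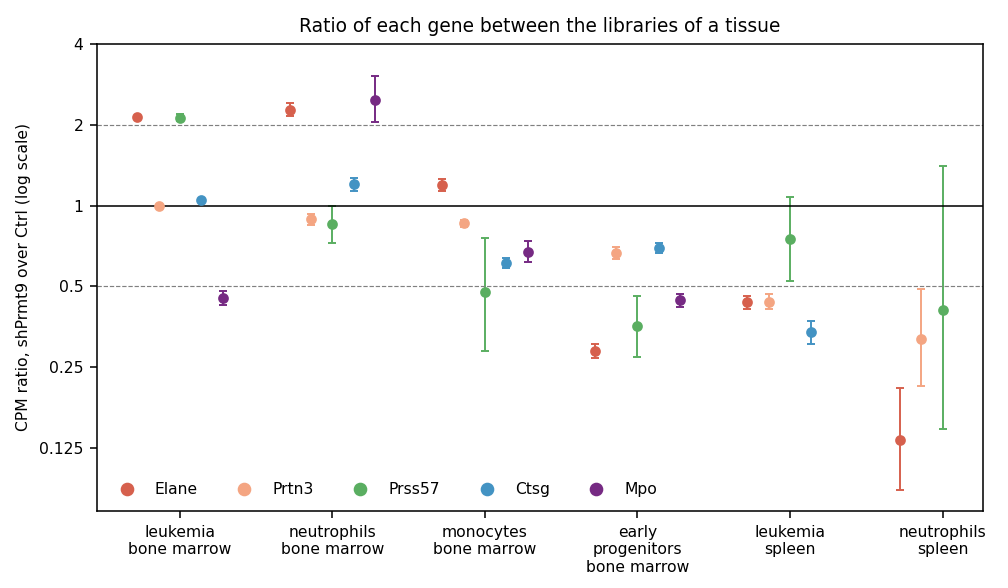
Ratio of the CPM level in shPrmt9 over Ctrl (log axis) for each gene and gate of bone marrow and spleen with at least 20 UMIs, with exact 95% intervals for counting error, a solid line at a ratio of 1 and dashed lines at 2 and 0.5. Elane sits at 2.14 in bone marrow leukemia cells and 0.436 in spleen leukemia cells, and the interval of Prtn3 in bone marrow leukemia cells ends at 1.0.

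The shift of Elane was spread over the leukemia cells and not carried by a few. In BM-Ctrl, Elane had a 10th percentile of 19.9 CPM, a median of 1110.0 CPM and a 90th percentile of 6217 CPM per cell, and in BM-shPrmt9 these were 353, 3911 and 10033 CPM. Cells with at least 1000 CPM of Elane made up 52.0% of leukemia cells in BM-Ctrl and 80.9% in BM-shPrmt9. The libraries stood further apart at the low end of the distribution than at the high end, and BM-Ctrl had many leukemia cells with little Elane.

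Prtn3 and Ctsg had no such low tail in BM-Ctrl. The median leukemia cell held 2507 CPM of Prtn3 in BM-Ctrl and 2769 CPM in BM-shPrmt9, and the 10th percentile was 576 and 988 CPM. For Ctsg the medians were 3205 and 3679 CPM, with 10th percentiles of 327 and 228 CPM. Prss57 had a median of 40.8 CPM and 111 CPM, with at least 10% of the cells at 0 in each library.

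Mpo had yet another form. A UMI of it was found in 30.9% and 16.8% of leukemia cells, and cells with at least 1000 CPM of Mpo were 19 of 1509 (1.26%) in BM-Ctrl and 17 of 1495 (1.14%) in BM-shPrmt9. Just 21 cells held 50% of its UMIs in BM-Ctrl and 11 cells in BM-shPrmt9. In BM-shPrmt9, the 236 leukemia cells with an Xist UMI held 91.9 CPM of Mpo and the 1259 without held 5.39 CPM, while Elane stood at 3377 and 4456 CPM and the leukemia marker Hoxa9 at 264 and 314 CPM. The part of host cells in these Mpo counts was not tested.

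**Figure D3:**
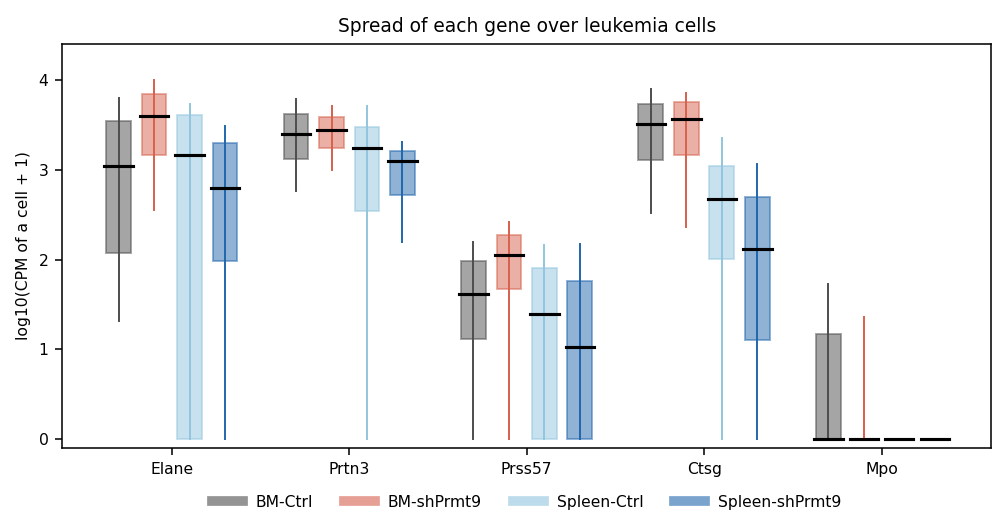
Level per leukemia cell of each gene in each library, as log10(CPM + 1), with black bars at the median, boxes from the 25th to the 75th and lines from the 10th to the 90th percentile of cells. For Elane, BM-Ctrl has a low tail (10th percentile 19.9 CPM) that BM-shPrmt9 has to a smaller extent (353 CPM), and the median leukemia cell of both bone marrow libraries holds no Mpo.

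Within a library, Elane and Prtn3 varied together from one leukemia cell to the next, with a Spearman rho of 0.82 in BM-Ctrl, 0.87 in BM-shPrmt9, 0.86 in Spleen-Ctrl and 0.78 in Spleen-shPrmt9. Elane and Prss57 gave 0.62, 0.69, 0.80 and 0.61, and Elane and Ctsg 0.22, 0.32, 0.57 and 0.67. Mpo was at most weakly related to any other member in leukemia cells (up to 0.28), whereas in bone marrow progenitors its rho with Ctsg was 0.76 in BM-Ctrl (167 cells) and 0.80 in BM-shPrmt9 (124 cells). The leukemia values are descriptions over 1509, 1495, 28 and 34 cells that share library and depth. The 2 adjacent genes thus stayed tied within each library while their ratio to each other differed between the bone marrow libraries.

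The makeup of the granule mRNA differed accordingly. In leukemia cells of BM-Ctrl, Ctsg gave 44.8%, Prtn3 31.7%, Elane 22.4%, Prss57 0.640% and Mpo 0.467% of the UMIs of the 5 genes. In BM-shPrmt9, Elane led with 37.5%, then Ctsg with 36.6%, Prtn3 with 24.6%, Prss57 with 1.06% and Mpo with 0.165%. Both spleens had more Elane (42.2% and 43.6%) and Prtn3 (38.6% and 40.2%) and less Ctsg (18.3% and 14.6%). In progenitors Mpo gave 21.6% of the 5-gene UMIs in BM-Ctrl and 18.6% in BM-shPrmt9. Among cells that met both the leukemia and the monocyte gate, 60 and 26 cells, it gave 2.58% and 11.5%. In the 26 cells of BM-shPrmt9 the Mpo level (687 CPM) was near that of the progenitors. Of these, the 16 cells with an Xist UMI held 826 Mpo UMIs (1212 CPM) and the 10 without held 1 (1.92 CPM). The part of host cells in this level was not tested.

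**Figure D4:**
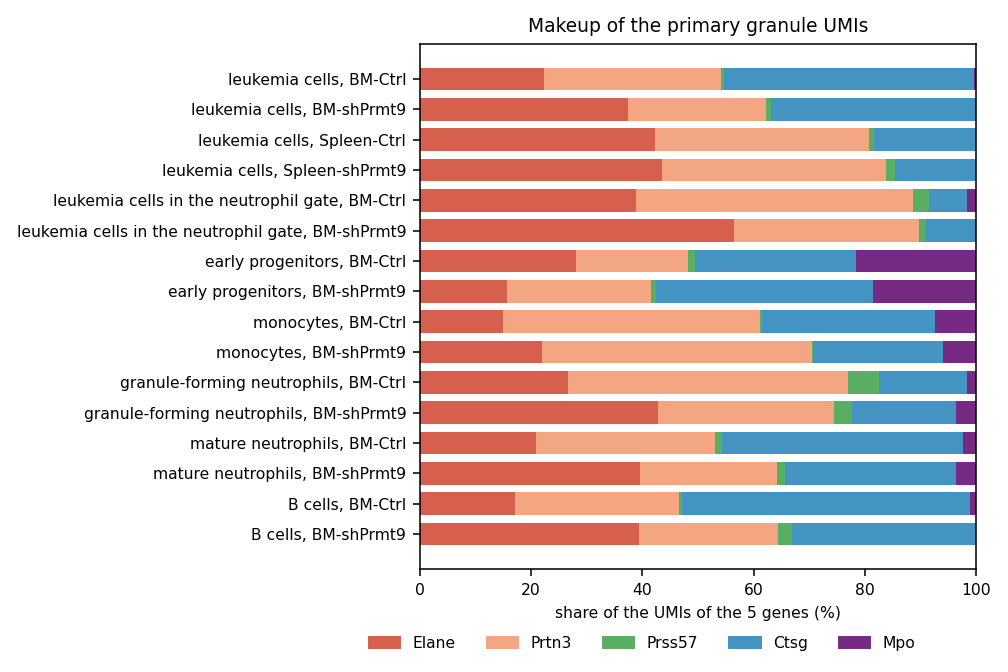
Share of the UMIs of the 5 genes (percent, stacked bars from 0 to 100) that each gene takes in leukemia cells of the 4 libraries and in the other gates of bone marrow. Elane takes 22.4% in BM-Ctrl and 37.5% in BM-shPrmt9 leukemia cells, and Mpo is a large share (21.6% and 18.6%) in progenitors.

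Leukemia cells that also carried neutrophil genes held the members in a different mix. Cells meeting the leukemia gate, alone or with the neutrophil gate, were ordered by the share of their UMIs on 12 neutrophil markers (S100a8, Ltf, Camp and others, none of them a member), in classes of under 2%, 2 to 8%, 8 to 20% and at least 20%. Ctsg declined first along these classes, from 4136 to 1594, 232 and 61.1 CPM in BM-Ctrl and from 4644 to 2599.7, 618 and 89.6 CPM in BM-shPrmt9. Elane held on longer, with 1978, 2429, 1396 and 91.7 CPM in BM-Ctrl and 4003, 5285, 3627 and 1496 CPM in BM-shPrmt9.

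Prtn3 measured 2817, 3102, 1692 and 406 CPM in BM-Ctrl, above Elane in every class. In BM-shPrmt9 it measured 2760, 3014, 2156 and 781 CPM, below Elane in every class. Prss57 changed least along the classes, with 56.2, 75, 85.8 and 45.8 CPM in BM-Ctrl and 121, 124, 78.6 and 46.6 CPM in BM-shPrmt9. The same order, Ctsg before Elane, was seen in Spleen-shPrmt9, where Ctsg measured 589, 387, 142 and 3.73 CPM and Elane 846, 1561, 888 and 177 CPM. Of the spleen classes, only those of 24, 61 and 78 cells in Spleen-shPrmt9 hold at least 20 cells, and the highest class of BM-Ctrl holds 21.

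The Elane difference between the bone marrow libraries was present in each class, with ratios of 2.02, 2.18, 2.60 and 16.3. For Prss57 it was 2.15 and 1.65 in the lower classes and 0.916 and 1.02 in the upper ones. Ctsg, level in the lowest class (1.12), was higher in BM-shPrmt9 in the classes of 2 to 8% and 8 to 20% (1.63 and 2.66). More of the leukemia-gated cells were in the upper classes in BM-shPrmt9, with 292 and 137 cells against 47 and 21 in BM-Ctrl.

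**Figure D5:**
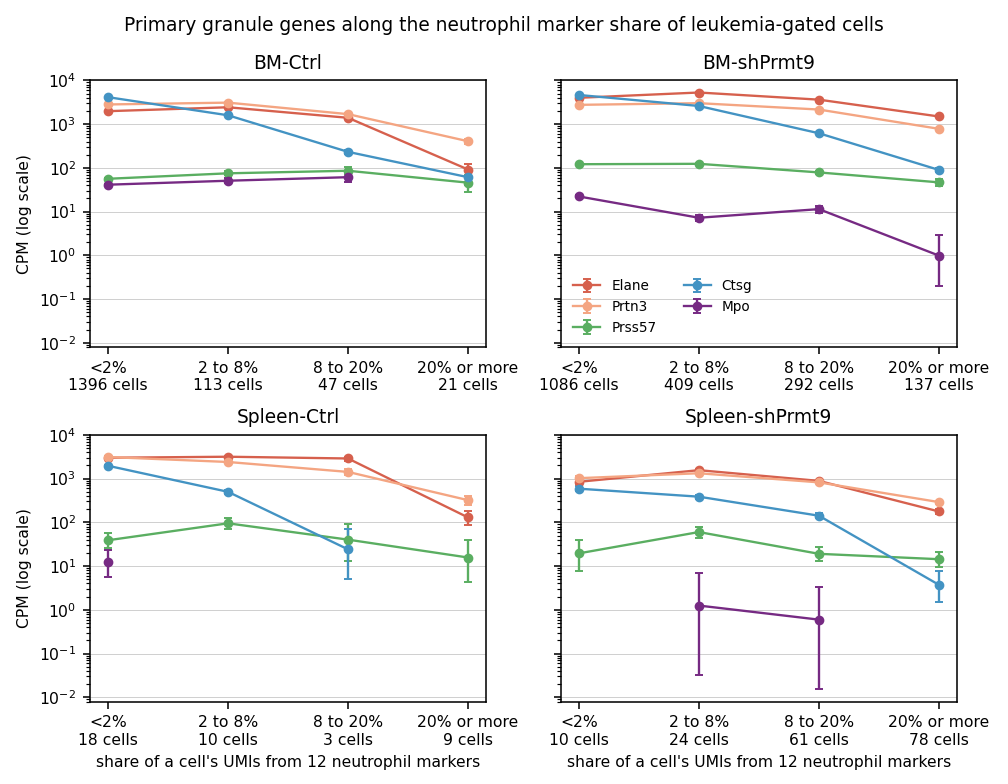
Level of each gene (CPM, log axis, exact 95% counting intervals) in leukemia-gated cells by the share of their UMIs on neutrophil markers, with 1 panel per library, 1 line per gene, and classes with 0 UMIs not drawn. Ctsg falls from 4136 to 61.1 CPM in BM-Ctrl along the classes, while Elane stays at 1496 CPM in the highest class of BM-shPrmt9.

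In neutrophils that did not meet the leukemia gate the members were low. Granule-forming neutrophils, with more UMIs on Ltf, Camp, Ngp, Fcnb, Cebpe and Chil3 than on mature markers, held 112 CPM of Elane in BM-Ctrl (836 cells) and 193 CPM in BM-shPrmt9 (1825 cells). Prtn3 measured 210.2 and 142 CPM, Prss57 23.7 and 15.2 CPM, Ctsg 65.6 and 84.2 CPM and Mpo 7.29 and 16.3 CPM in the same gates. Set against the B cells of BM-Ctrl, Prss57 was 29.9 times, Prtn3 4.38 times and Elane 4.01 times as high, whereas Ctsg was 0.775 times the B-cell level and is read there as background. In BM-shPrmt9 the same ratios were 4.05 (1.57 to 15.0) for Prss57, from 4 UMIs in B cells, 3.79 for Prtn3, 3.28 for Elane and 1.7 (1.29 to 2.27) for Ctsg. The Elane levels were uneven over the granule-forming cells, and 9 of the 836 in BM-Ctrl held 70.5% of its UMIs. In BM-shPrmt9, the 1123 cells with an Xist UMI held 107 CPM of Elane and 4.69 CPM of Hoxa9. The 702 cells without one held 366 and 22.5 CPM. The part of leukemia cells in these levels was not tested.

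Mature neutrophils, the largest gate with 3091 and 3910 cells, came closer to that background. Their Elane level was 42.8 CPM in BM-Ctrl and 136 CPM in BM-shPrmt9, beside 27.9 and 59.0 CPM in B cells. For Elane their makeup followed that of the leukemia cells of the same library, at 20.8% and 39.5% of the 5-gene UMIs in mature neutrophils and 17.1% and 39.4% in B cells. Mpo did not follow it. It gave 2.31% and 3.67% in mature neutrophils, 0.467% and 0.165% in leukemia cells and 1.07% and 0% in B cells. Few cells carried it, as a Mpo UMI was found in 1.84% and 1.07% of mature neutrophils. In BM-shPrmt9, the 1473 mature neutrophils with an Xist UMI held 268 of the gate's 297 Mpo UMIs. The part of free RNA in these levels was not tested.

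Over all bone marrow neutrophils, 2 of 5 members (Elane, 2.28, and Mpo, 2.48) were at least 2-fold higher in BM-shPrmt9 and none at least 2-fold lower, against 5.26% and 4.48% of 11797 genes. Prtn3 had a ratio of 0.887, Prss57 0.851 and Ctsg 1.2. The sum had a ratio of 1.34 (1.30 to 1.38) and turned to 0.889 when the barcodes left out as doublets were kept, with Elane at 1.25 and Mpo at 0.483. Mpo was also under 1 with a looser gate (0.732) and without Xist cells (0.355). In BM-shPrmt9, 1 neutrophil held 306 of the 678 Mpo UMIs (45.1%), the share of cells with a Mpo UMI was lower there (1.5% against 2.37%), and without the top cell of each library the Mpo ratio was 1.55. Composition scaling by TMM shifted this gate by 0.24 on the log2 scale, so that the sum ratio became 1.58 and Prtn3 and Prss57 turned to 1.05 and 1.01.

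Spleen neutrophils held few counts, 78 UMIs of the 5 genes in 42 cells of Spleen-Ctrl and 175 UMIs in 240 cells of Spleen-shPrmt9. The sum ratio of 0.241 (0.184 to 0.319) rested on 1 cell that held 72 of the 78 UMIs, and without the top cell of each library it became 2.45. The 3 members with at least 20 UMIs were all at least 2-fold lower, against 11.8% of genes, and none at least 2-fold higher, against 11.0%, with the same cell behind them. TMM shifted this gate by 0.17 on the log2 scale. No direction is read from this gate.

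In bone marrow monocytes Prtn3 was the most abundant member. Prtn3 stood at 1125 CPM in BM-Ctrl (613 cells) and 964 CPM in BM-shPrmt9 (298 cells), a ratio of 0.857, and Ctsg at 757 and 464 CPM (0.612). Elane measured 364 and 435 CPM (1.19), Mpo 179 and 120.5 CPM (0.674) and Prss57 8.56 and 4.07 CPM (0.476). These sums rested on part of the cells: 50% of the Prtn3 UMIs lay in 50 and 16 cells, and 50% of the Mpo UMIs in 7 and 4 cells. The median monocyte held 382 CPM of Prtn3 in BM-Ctrl and 97.8 CPM in BM-shPrmt9. For Elane the medians were 0 and 73.6 CPM, and for Mpo 0 CPM in both. Against the B cells of BM-Ctrl, Mpo in monocytes was 103 times and Prtn3 23.4 times as high, while Prss57 in BM-shPrmt9 monocytes was 1.09 times (0.371 to 4.32) the level of B cells of that library.

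Prss57, the lowest member there, was the 1 of 5 members at least 2-fold lower in BM-shPrmt9 monocytes, with none at least 2-fold higher, against 6.83% and 6.61% of 11189 genes. The monocyte sum had a ratio of 0.817 (0.799 to 0.835). It became 0.20 without cells that held an Xist UMI, which left 29 cells in BM-shPrmt9, and Elane, at 1.19, turned to 0.495 there and to 0.844 with doublets kept. In spleen, 25 monocytes of Spleen-Ctrl held 0 UMIs of the 5 genes, which allows up to 14.2 CPM, and 93 of Spleen-shPrmt9 held 3, all of Elane.

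Early progenitors (Kit, Cd34, Flt3 and Sox4, outside the leukemia gate) had the highest Mpo level of the bone marrow gates. A Mpo UMI was found in 40.1% of them in BM-Ctrl and 37.9% in BM-shPrmt9, and 11 and 4 cells held 50% of its UMIs. The leukemia markers still measured 128 and 116 CPM in this gate, beside 23.5 and 22.5 CPM in B cells. Mpo stood at 1611 CPM in BM-Ctrl (167 cells) and 716 CPM in BM-shPrmt9 (124 cells), which was 38.6 and 38.0 times its level in the leukemia cells of the same library. Elane measured 2101 and 603 CPM there and Ctsg 2171 and 1508 CPM. This gate also held basophil and mast cell markers (2472 and 4203 CPM of Mcpt8, Prss34, Cpa3 and Gata2), whose part was not tested, nor was that of the Xist difference given above.

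All 5 members were lower in BM-shPrmt9 progenitors, 3 of them (Elane 0.287, Prss57 0.357, Mpo 0.445) at least 2-fold, against 3.85% of genes. None was at least 2-fold higher, against 4.66%. A few cells carried these levels: 7 of 167 cells held 50% of the Elane UMIs in BM-Ctrl and 4 of 124 in BM-shPrmt9. The median cell went the other way, with 0 CPM of Elane in BM-Ctrl and 79.8 CPM in BM-shPrmt9. An Elane UMI was found in 47.3% and 75% of progenitors, but in 23.5% and 20.2% once each cell was thinned to 2000 UMIs. Without thinning, 14.1% and 43% of B cells held one, at 27.9 and 59.0 CPM, and the part of this background was not tested. The Elane ratio of summed UMIs ran opposite to that of the leukemia cells of the same 2 libraries, a difference that was not tested. Of the Mpo UMIs of a library, 31.0% in BM-Ctrl and 25.4% in BM-shPrmt9 lay in leukemia cells, and 37.2% and 26.3% in these few progenitors.

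Detection per cell was compared after each cell had been thinned to 2000 UMIs. Elane was found in 65.7% of leukemia cells in BM-Ctrl and 88.8% in BM-shPrmt9 (94.96% and 98.4% without thinning), beside 5.97% and 11.0% of B cells. For Prtn3 the leukemia shares were 90.2% and 94.5%, for Ctsg 87.9% and 87.0%, for Prss57 10.7% and 20.3% and for Mpo 5.30% and 2.48%. The median depth was 60149 and 55814 UMIs in leukemia cells and 4743 and 8806 in B cells of the same libraries.

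Other genes of the granule program were counted in bone marrow leukemia cells beside the 13.8% of all genes that were at least 2-fold higher and the 6.52% at least 2-fold lower. Of 15 azurophil granule partners, 2 were at least 2-fold higher in BM-shPrmt9 and 1 at least 2-fold lower, with a median log2 ratio of 0.60 beside 0.07 over all genes. Ms4a3, a membrane protein of granulocyte-monocyte progenitors, was at 5.44 CPM in BM-Ctrl and 489.6 CPM in BM-shPrmt9 (ratio 90.0), while Alas1, which starts heme synthesis, had 0.628 and the receptor Clec12a 0.343. Among 8 genes for inhibitors of these or of cysteine proteases, 3 were at least 2-fold higher and 1 lower (median 0.95). Serpina3g had a ratio of 5.98 and Stfa2 of 3.15, whereas Serpinb1a, the inhibitor of neutrophil elastase and cathepsin G, had 0.370 and Slpi 0.556.

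Secondary and tertiary granule genes, which are switched on after the primary ones, numbered 8 of 9 at least 2-fold higher (median 1.53), beside 13.8% of all genes, with Chil3 at 10.8, Cybb at 5.84, Lcn2 at 2.21 and Olfm4 at 1.83. The list was also higher in BM-shPrmt9 in other gates of bone marrow. There, 8 of 9 genes were at least 2-fold higher in T cells (median 1.87), 8 of 9 in erythroid cells (1.54) and 5 of 9 in B cells (1.16). The medians over all genes in these gates were 0.01, 0.22 and -0.07, and the part of free RNA was not tested. Over the leukemia gate the 12 neutrophil markers, several of them from this list, took 0.424% of UMIs in BM-Ctrl and 1.38% in BM-shPrmt9, and their part was not tested. Of 13 transcription factors tied to these genes, 1 was at least 2-fold higher (Ets1, 2.18) and 2 at least 2-fold lower (Irf8, a factor of the monocyte lineage, 0.419, and Cbfb, 0.462), and Cebpe, a factor of late granule genes, had 1.56. Among the chromosomal neighbors of the members, 3 of the 10 tested were at least 2-fold higher and 1 lower (median 0.25). Mcpt8 and Gzmb, near Ctsg, had ratios of 4.88 and 2.78, Polrmt, near Elane, 0.853, and Tspoap1, near Mpo, 0.269. Mcpt8 is also a basophil gene, and the 4 basophil and mast cell markers together measured 18.0 CPM in BM-Ctrl and 77.6 CPM in BM-shPrmt9 leukemia cells, whose part was not tested.

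In the few spleen leukemia cells the same lists gave 3 higher and 3 lower of 14 azurophil partners tested, 2 and 2 of 7 inhibitors, 0 and 4 of 12 transcription factors, 4 and 0 of 7 secondary and tertiary granule genes and 0 and 0 of 5 neighbors, beside 10.6% and 9.62% of all genes. The secondary granule list thus had a median log2 ratio of 1.49 in spleen, beside ratios of 0.436 for Elane, 0.439 for Prtn3 and 0.337 for Ctsg in the same cells. The interval of Prss57 (0.523 to 1.07) included no difference, and Mpo had under 20 UMIs. The secondary and tertiary list was also higher in spleen T cells (8 of 9 genes at least 2-fold higher, median 3.21) and B cells (6 of 9, median 2.42). The medians over all genes there were -0.08 and -0.19. The 12 neutrophil markers, several of them from this list, took 2.00% of UMIs in Spleen-Ctrl and 3.76% in Spleen-shPrmt9 leukemia cells, and their part was not tested. Ms4a3 was again higher, with 17 UMIs in Spleen-Ctrl and 311 in Spleen-shPrmt9 (ratio 20, 12.3 to 34.8), and Chil3 had 2 and 267 UMIs (146, 40.0 to 1211). Irf8, with 101 and 2 UMIs, was the lowest transcription factor (0.0216, 0.00259 to 0.0802), and Myc had a ratio of 0.195.

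In bone marrow neutrophils the related lists differed little, with 1 of 15 azurophil partners at least 2-fold higher (Ms4a3, 2.94), 1 of 8 inhibitors higher (Serpina3g, 8.22) and 1 lower (Serpinb1a, 0.447), none of 13 transcription factors and none of 9 secondary and tertiary granule genes past 2-fold, and 1 of 9 neighbors each way (Mcpt8, 14.1, and Tspoap1, 0.416), beside 5.26% and 4.48% of all genes. The basophil and mast cell markers, Mcpt8 among them, measured 9.03 CPM in BM-Ctrl and 153 CPM in BM-shPrmt9 neutrophils. In bone marrow monocytes, 3 of 15 azurophil partners were at least 2-fold higher (Cd63, 3.03, and Lyz2, 2.21, among them), 3 of 6 inhibitors were higher and 1 lower (Serpinb1a, 0.160), 1 of 13 transcription factors was lower (Klf4, a monocyte factor, 0.266), 5 of 9 secondary and tertiary granule genes were higher and 1 lower (Mmp8, 0.406), and 2 of 9 neighbors were higher and 1 lower, beside 6.61% and 6.83% of all genes. Serpinb1a thus had a ratio under 0.5 in leukemia cells, neutrophils and monocytes of bone marrow, and Ms4a3 one over 2 in leukemia cells and neutrophils.

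The genes whose level over 27 sums of gate and library was most like the summed members, among 10531 genes ranked, were Mt2 (Pearson r 0.917 on the log2 scale), Mt1 (0.909), Cela1 (0.906), Hacd1 (0.90), Myl10 (0.887), Cdkn3 (0.880), Mcm10 (0.871), Svip (0.866), Sh2d5 (0.866) and Cdk1 (0.864). The members' own r with their sum was 0.989 for Elane, 0.988 for Prtn3, 0.98 for Ctsg, 0.881 for Prss57 and 0.768 for Mpo. These sums share libraries, and the likeness is a description of which gates are high.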

How the data were processed

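Single-cell 3′ libraries (Chromium v2 kit per the labels) were made from bone marrow and spleen cells, 1 library for each of the 4 groups. The deposited tables hold UMI counts per gene and cell that the authors made with Cell Ranger on mm10, version 6.1.1 per the submitters' processing notes, and are not normalized. Total counts per library were 84009744 to 188030429 UMIs, and no column of an unrelated sample was present (0).

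Cells with under 200 genes or over 20% mitochondrial UMIs were left out. Scrublet in scanpy 1.11.5 made 110, 0, 1 and 203 doublet calls of its own, under 0.5% in 2 libraries, so cells were instead removed from the top of the score, at a rate of 0.8% per 1000 cells (752, 1011, 652 and 558). Gates used markers that hold none of the 5 genes, with thresholds set after the marker distributions had been seen: the share of a cell's UMIs on the markers and the number of markers with a UMI had to reach 0.01% and 3 of 6 for leukemia cells, 8% and 5 of 12 for neutrophils, 0.1% and 3 of 8 for monocytes, 0.1% and 3 of 5 for B cells, and 0.01% and 2 of 4 for progenitors. T cells had to reach 0.1% and 3 of 5 markers, and erythroid cells 20% and 3 of 6. Neutrophils were granule-forming or mature by which marker list held the larger share. CPM is the gene's UMIs per 1e+06 UMIs of the gate.

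Ratios are shPrmt9 over Ctrl, with exact conditional binomial intervals (levels: exact Poisson; shares: Clopper-Pearson; all 95%). Genes counted as past 2-fold had at least 20 UMIs over both libraries, and floors are 3 UMIs. There was no test, since each group had 1 library. The intervals were tested on simulated Poisson counts of whole gates, the same model that they assume. The simulation left out the uneven spread of UMIs over cells, so it cannot show that the intervals cover that spread. TMM factors came from edgeR 4.0.16. The genes named are the members, the 10 most alike over gate sums (at least 20 cells, genes with at least 1000 UMIs), and the highest and lowest 2 ratios of each list, from which the text gives a selection. Members and lists (azurophil partners, inhibitors, transcription factors, secondary and tertiary granule genes, neighbors) were chosen with earlier results of these data known.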

Additional observations from a re-analysis of the deposited data

Results flagged for a closer look

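The same hairpin went with opposite or unequal differences in bone marrow and spleen, and with 1 library per group the difference between the tissues was not tested. The sex markers differed between the 2 tissues of each hairpin, so tissue and mouse cannot be told apart. Elane in leukemia cells had a ratio of shPrmt9 over Ctrl of 2.14 in bone marrow and 0.436 in spleen, where the gates held 28 and 34 cells. Ctsg in leukemia cells had ratios of 1.05 and 0.337, and the sum of the 5 genes 1.28 and 0.421. In neutrophils, Elane had ratios of 2.28 and 0.134 and the sum 1.34 and 0.241, and both spleen values rest on 1 cell of Spleen-Ctrl. A check for a single sample far from its group could not be made, as no group held 4 samples.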

How the results depend on the processing

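Ratios of the summed 5 genes in bone marrow leukemia cells (1.28) stayed above 1 in every alternative run: 1.27 with a stricter gate, 1.29 with a looser gate, 1.31 without cells with an Xist UMI, 1.23 over every cell that met the leukemia gate, 1.23 with TMM factors, 1.25 as a mean over cells and 1.29 with the B-cell level subtracted. The Xist, Y-linked and every-cell alternatives were chosen after the data had been seen. Ctsg turned to 0.953 over every such cell. In bone marrow neutrophils (1.34) the sum was 0.889 with doublets kept, 1.26 with a stricter gate, 1.24 with a looser gate, 1.58 without Xist cells, 1.58 with TMM, 1.69 as a mean over cells and 1.85 with the B-cell level subtracted. With doublets kept Ctsg was 0.879 and Mpo 0.483, Mpo was 0.732 with the looser gate and 0.355 without Xist cells, and Prtn3 was 1.10 without Xist cells, 1.05 with TMM and 1.34 as a mean, and Prss57 1.01 and 1.24 in the last 2. In bone marrow monocytes (0.817) the sum was 0.730 with doublets kept, 0.875 with a stricter gate, 0.879 with a looser gate, 0.795 without the top cell, 0.20 without Xist cells, 0.849 with TMM and 0.862 as a mean, while Elane was 0.844 with doublets kept and 0.495 without Xist cells, and Mpo was 1.01 with the looser gate. In spleen leukemia cells (0.421) the sum was 0.361 with doublets kept, 0.350 with a stricter gate, 0.454 without the top cell, 0.452 without cells with a Y-linked UMI, 0.268 over every leukemia-gated cell and 0.477 as a mean. In spleen neutrophils (0.241) it was 0.487 with doublets kept, 0.454 with a stricter gate, 0.489 with a looser gate, 2.45 without the top cell (Elane 3.82, Prtn3 2.85) and 0.484 as a mean.

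With no minimum on UMIs, the genes at least 2-fold higher and lower numbered 4626 and 2393 in bone marrow leukemia cells, 3188 and 2175 in bone marrow neutrophils (286 lower with TMM), 2228 and 2635 in bone marrow monocytes, 2417 and 2691 in spleen leukemia cells, 3845 and 2449 in spleen neutrophils and 2973 and 2328 in spleen monocytes. Of 206 single-gene values, 103 moved by less than their counting interval, 88 by more, and 15 turned direction. The causes were not tested. Spleen monocytes gave no sum ratio under any alternative, as Spleen-Ctrl held 0 UMIs. No paired analysis was possible because each group is 1 library. Depth limits Mpo and Prss57 in spleen, where most gates held under 20 UMIs of them.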
